A study of Mus musculus with 9 samples.

Results

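The genes described here are 6 inhibitors of cyclin-dependent kinases (Cdkn1a, Cdkn1b, Cdkn2a, Cdkn2b, Cdkn2c and Cdkn2d), the p53 gene Trp53 and its negative regulator Mdm2. They were taken by exact symbol from the deposited table of read counts, where all 8 had a row among 24394 gene rows. All 8 also passed the filter on low counts (a mean of at least 10 per library), which left 13000 genes for testing. ILC2 (group 2 innate lymphoid cells), T cells and microglia had been sorted from C57BL/6 brains at an age of 20 to 22 months, and their RNA was sequenced. All 3 populations came from mice given IL-33, an alarmin cytokine, by daily injection of 400 ng over 7 days. No untreated or young brain was analysed here, so the comparisons are between cell populations of treated aged mice and give no effect of IL-33 or of age. The surface markers used for sorting, the sex of the mice and any pooling are not given in the labels. Levels rest on 2 ILC2, 3 T cell and 3 microglia libraries, and 1 of the 3 ILC2 samples in the labels was not analysed here.

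Cyclin-dependent kinases bound to cyclins drive the cell cycle, and the inhibitors hold them back. The Cip/Kip inhibitors, here p21 from Cdkn1a and p27 from Cdkn1b, bind a broad range of cyclin-kinase complexes. The INK4 inhibitors, from Cdkn2a, Cdkn2b, Cdkn2c and Cdkn2d, bind CDK4 and CDK6 and keep the retinoblastoma protein active. p53 is a stress-activated transcription factor that switches on Cdkn1a and Mdm2, and the Mdm2 protein in turn marks p53 for degradation. p21 and the p16 product of Cdkn2a are widely used as signs of senescence, while p27 is known for holding resting lymphocytes out of the cycle. Much of the control of p53 and p27 acts on the proteins, which these RNA counts do not show.

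The libraries held 8376609 to 13585956 counts on genes, with 11390 to 12620 genes detected. All 9 markers of each labelled population had counts in all its libraries, such as Il1rl1 and Gata3 (ILC2), Cd3e (T cells) and Tmem119 (microglia). Presence alone does not tell them apart, as the 9 microglia markers also had counts in every ILC2 and T cell library. The same held for the 9 ILC2 markers in T cells. Summed levels did. For ILC2 markers they were 7391 to 7580 CPM in ILC2, 499.3 to 749.8 CPM in T cells and 62.9 to 77.5 CPM in microglia. T cell markers summed to 8174 to 11055 CPM in T cells, 744.3 to 982.2 CPM in ILC2 and 20.1 to 50.1 CPM in microglia. Most of the ILC2 sum was Cd3g (559.0 and 791.0 CPM) and Lat (135.9 and 181.6 CPM), with every other T cell marker at 22.4 CPM or less there. Microglia markers summed to 35735 to 52912 CPM in microglia, 772.8 to 930.2 CPM in ILC2 and 593.4 to 1346 CPM in T cells. The neutrophil markers S100a8 and S100a9 stood apart in microglia and made up nearly all of the neutrophil signal there. Summed over the 4 neutrophil markers with a row, the level was 49974, 8077 and 62457 CPM in microglia 1, 2 and 3. It was 6.40 to 434.0 CPM in T cells and 7.43 to 88.4 CPM in ILC2. Mpo and Elane did not stand apart: T cells 3 had 191.0 and 137.6 CPM, against 43.7 to 150.9 and 37.4 to 185.9 CPM in microglia. Ly6g, also listed, had no row. Basophil and mast cell markers summed to 393.6 and 1222 CPM in ILC2 1 and 2, against 0 to 46.8 CPM in T cells and 51.0 to 226.4 CPM in microglia. Oligodendrocyte markers summed to 548.9 to 817.8 CPM in ILC2, 249.7 to 383.3 CPM in T cells and 105.8 to 143.3 CPM in microglia. For B cell markers the sums were 121.5 to 347.1 CPM in ILC2, 2.19 to 146.0 CPM in T cells and 83.4 to 94.7 CPM in microglia. Proliferation genes (such as Mki67 and Pcna) summed to 826.8 and 903.0 CPM in ILC2, 727.9 to 927.0 CPM in T cells and 326.6 to 445.1 CPM in microglia. Library numbers only name the libraries and pair none across populations.

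Trp53 RNA was higher in T cells than in microglia, and it was the only one of the 8 genes to pass the threshold in any comparison. Its level was 157.5 and 192.5 CPM in ILC2, 251.1, 247.5 and 192.0 CPM in T cells, and 119.5, 89.0 and 82.9 CPM in microglia. Every T cell library and every ILC2 library lay above every microglia library, while ILC2 and T cells overlapped. T cells against microglia gave a log2 fold change of 1.24 (SE 0.28), a 2.37-fold difference with an adjusted p of 0.0190. A gene is called here at an adjusted p under 0.05 in edgeR's quasi-likelihood test, Benjamini-Hochberg adjusted over all 13000 genes, where its log2 fold change is also 1 or more in size. For ILC2 against microglia it was 0.85 (SE 0.31, adjusted p = 0.125, unadjusted p = 0.0213), and for ILC2 against T cells −0.40 (SE 0.32, adjusted p = 0.845). The call in T cells against microglia was lost when microglia 2, microglia 3, T cells 1 or T cells 2 was left out, with adjusted p of 0.0657, 0.0646, 0.0593 and 0.0806 in that order. Without both microglia libraries richest in neutrophil markers (1 and 3) the log2 fold change was 1.37 with an adjusted p of 0.127. In bulk RNA of a sorted population, fewer expressing cells and less RNA per cell cannot be told apart.

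Mdm2, which encodes the ubiquitin ligase that turns p53 over, varied more within the populations than between them. It measured 77.2 and 53.3 CPM in ILC2, 4.45, 55.3 and 39.7 CPM in T cells, and 86.0, 35.3 and 25.2 CPM in microglia. The library T cells 1 stood far under the other T cell libraries, and the 3 populations overlapped. Its log2 fold change was 0.98 (SE 0.88, adjusted p = 0.894) for ILC2 against T cells, 0.42 (SE 0.88, adjusted p = 0.860) for ILC2 against microglia and −0.56 (SE 0.80, adjusted p = 0.726) for T cells against microglia. The last value became 0.13 without microglia 1.

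**Figure D1:**
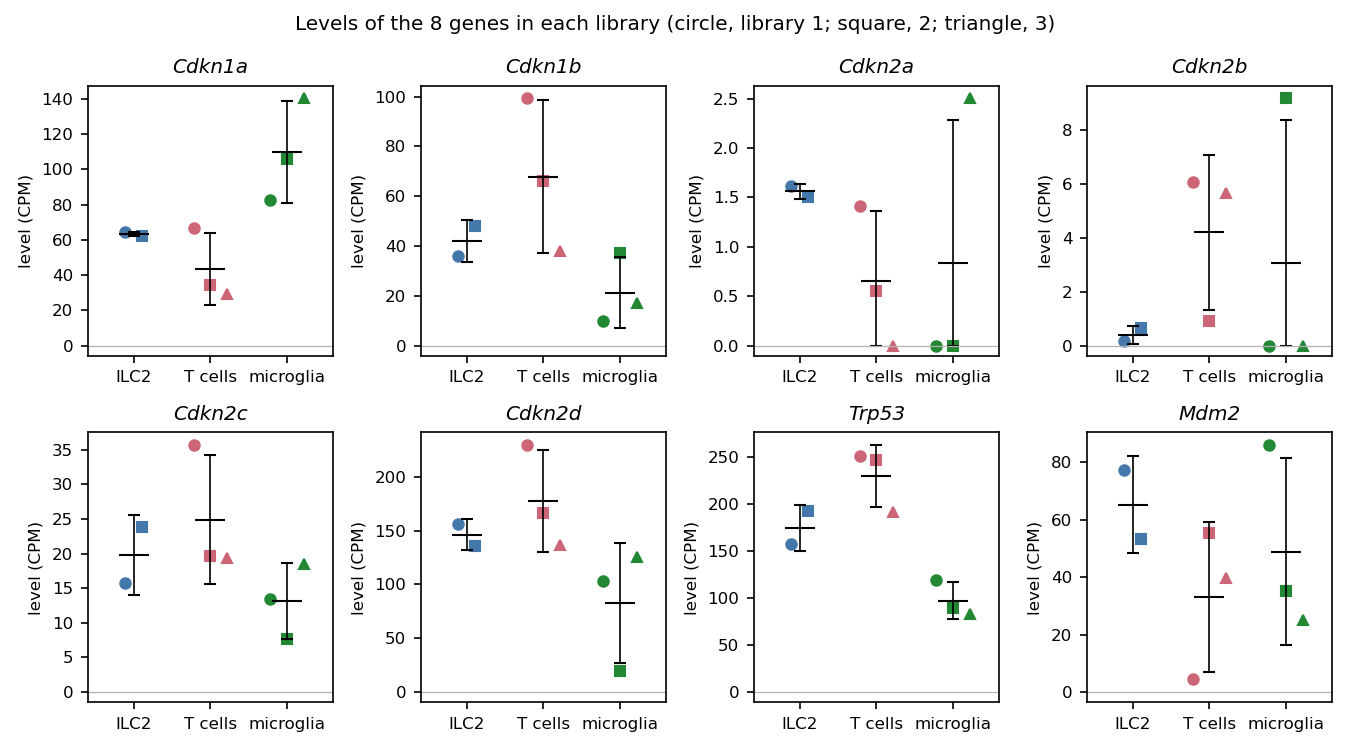
Levels of the 8 genes in CPM on the scaled library, 1 panel a gene with its own linear axis. Points are libraries (2 ILC2, 3 T cells, 3 microglia), bars are mean ± SD with the lower bar cut at 0, and the T cell points for Trp53, at 192.0 to 251.1 CPM, all lie above the microglia points, at 82.9 to 119.5 CPM.

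Of the Cip/Kip pair, Cdkn1a leaned towards microglia and Cdkn1b towards T cells, and neither passed the threshold. The window upstream of the first Cdkn1a start is shown because it carries a match to the sequence that p53 binds. It spans chr17:29090729-29090968 on the plus strand (RefSeq, GRCm38.p6), bases 250 to 11 before that start. Capitals mark a 20-base match to the p53 consensus (2 decamers with no spacer), with the core of both decamers intact and at most 1 mismatch in the flanks. The consensus reads the same on both strands, and 0 of the windows of these 8 genes matched it without a mismatch.
Cdkn1a, upstream start: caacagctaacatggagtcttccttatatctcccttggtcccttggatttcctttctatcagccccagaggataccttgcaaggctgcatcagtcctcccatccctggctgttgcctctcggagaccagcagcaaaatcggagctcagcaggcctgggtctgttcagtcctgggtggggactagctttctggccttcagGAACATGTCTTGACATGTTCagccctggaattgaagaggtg
The site lies at positions 29090928 to 29090947, 51 to 32 bases before the start. A window of 300 bases held such a match in 18 of 32851 RefSeq starts (0.0548%) and in 1 of the 11 windows of these 8 genes. A match describes letters and not binding, and no binding was measured.

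Cdkn1a measured 64.2 and 62.4 CPM in ILC2, 67.0, 34.5 and 29.1 CPM in T cells, and 82.8, 105.8 and 140.2 CPM in microglia. On the scaled libraries all microglia libraries lay above all others, while ILC2 lay within the T cell range. Plain library sizes did not keep that separation. Microglia 1 had 819 of 12047894 counts, which is a smaller share than 795 of 10544868 in ILC2 1 and 617 of 8376609 in T cells 1. T cells against microglia gave a log2 fold change of −1.33 (SE 0.42, adjusted p = 0.0649, unadjusted p = 0.0100), and ILC2 against microglia gave −0.79 (SE 0.47, adjusted p = 0.353). For ILC2 against T cells it was 0.54 (SE 0.46, adjusted p = 0.869). The difference between T cells and microglia did pass the threshold in DESeq2 (−1.43, adjusted p = 0.0179), in limma-voom (−1.44, adjusted p = 0.0234), with the newer quasi-likelihood method of edgeR (−1.35, adjusted p = 0.0291) and without T cells 1 (−1.79, adjusted p = 0.0335). In the other 15 of 19 alternatives it stayed short of the threshold. Over all 19 its log2 fold change ran from −1.79 to −0.98.

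Cdkn1b, the p27 gene, ran the other way between T cells and microglia. It measured 35.9 and 47.9 CPM in ILC2, 99.3, 66.0 and 37.9 CPM in T cells, and 9.81, 37.1 and 16.9 CPM in microglia. T cell and microglia libraries did not overlap, although the lowest T cell library and the highest microglia library differed by less than 1 CPM. Its log2 fold change was 1.67 (SE 0.60, adjusted p = 0.0982) for T cells against microglia, 0.98 (SE 0.64, adjusted p = 0.411) for ILC2 against microglia and −0.69 (SE 0.66, adjusted p = 0.918) for ILC2 against T cells. Among microglia libraries Cdkn1b was highest in microglia 2, which had the lowest neutrophil marker level, and the part of other cells in this was not tested.

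The 4 INK4 genes were far apart in level, from Cdkn2d, whose RNA was abundant in every library but 1, to Cdkn2a and Cdkn2b, which sat near the detection limit. Cdkn2d encodes p19 of the INK4 family, a protein that peaks in S phase in cycling cells. It measured 156.4 and 135.9 CPM in ILC2, 229.8, 166.7 and 136.4 CPM in T cells, and 102.8, 19.5 and 125.3 CPM in microglia. Microglia 2 was low and the other microglia libraries were just under the ILC2 and T cell ranges. The log2 fold change was 0.82 (SE 0.62, adjusted p = 0.492) for ILC2 against microglia, 1.11 (SE 0.57, adjusted p = 0.235) for T cells against microglia and −0.28 (SE 0.63, adjusted p = 1) for ILC2 against T cells. Across the microglia libraries Cdkn2d had the same order as the summed neutrophil markers: 62457 CPM in microglia 3, 49974 CPM in microglia 1 and 8077 CPM in microglia 2. Without microglia 1 and 3, the difference passed the threshold for ILC2 against microglia (2.91, adjusted p = 0.0303) and for T cells against microglia (3.19, adjusted p = 0.0169), each resting on a lone microglia library assumed to vary like the other populations. Without microglia 2 the same values were 0.36 and 0.64, both short of the threshold. The part of neutrophil RNA in the microglia level of Cdkn2d was not tested.

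Cdkn2c, which encodes p18 of the INK4 family and restrains lymphocyte proliferation in mice, was at an intermediate level. It measured 15.7 and 23.9 CPM in ILC2, 35.7, 19.7 and 19.3 CPM in T cells, and 13.4, 7.61 and 18.6 CPM in microglia. The T cell libraries were above the microglia libraries by a narrow margin, and ILC2 overlapped both. Fitted log2 fold changes were 0.92 (SE 0.68, adjusted p = 0.432) for T cells against microglia, 0.59 (SE 0.75, adjusted p = 0.738) for ILC2 against microglia and −0.33 (SE 0.76, adjusted p = 1) for ILC2 against T cells.

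Cdkn2a gives both p16, an INK4 inhibitor, and ARF, a protein that binds Mdm2 and so protects p53, from separate first exons. The table has 1 row for the gene, so its count cannot be divided between the products. The upstream sequences of both starts are shown to make that distance plain. They lie on the minus strand at chr4:89282243-89282442 for p16 and chr4:89294670-89294869 for ARF (RefSeq, GRCm38.p6), each covering bases 250 to 51 before its start, and the starts are 12427 bases apart. No letters are capitalised, since none is singled out here.
Cdkn2a, p16 start: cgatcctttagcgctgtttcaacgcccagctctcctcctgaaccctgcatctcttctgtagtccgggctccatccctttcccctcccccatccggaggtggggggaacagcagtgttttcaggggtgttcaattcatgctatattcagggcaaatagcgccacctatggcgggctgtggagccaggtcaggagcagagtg
Cdkn2a, ARF start: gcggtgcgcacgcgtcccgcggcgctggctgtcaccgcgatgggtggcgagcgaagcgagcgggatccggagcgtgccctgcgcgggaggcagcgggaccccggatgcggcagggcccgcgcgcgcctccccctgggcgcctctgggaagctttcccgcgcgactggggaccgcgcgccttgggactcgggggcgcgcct
The ARF window of 300 bases is 77% G and C with a CpG observed-to-expected ratio of 1.04, and the p16 window is 60.3% G and C with a ratio of 0.442.

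Cdkn2a had 20 and 19 counts in ILC2 (1.62 and 1.51 CPM), 13, 8 and 0 counts in T cells (1.41, 0.551 and 0 CPM), and 0, 0 and 24 counts in microglia (0, 0 and 2.502 CPM). Both ILC2 libraries held it, whereas in microglia the counts came from microglia 3 alone. A count of 0 allows a level of up to 3 counts, which is 0.303 CPM in microglia 1, 0.297 CPM in microglia 2 and 0.299 CPM in T cells 3, for counting error only. The log2 fold change was 1.24 (SE 2.81, adjusted p = 1) for ILC2 against T cells, 0.90 (SE 2.81, adjusted p = 0.916) for ILC2 against microglia and −0.35 (SE 2.56, adjusted p = 0.961) for T cells against microglia. The last of these turned to 0.29 without T cells 3. Without microglia 3 no microglia count was left, and the fit gave 7.14 for ILC2 against microglia and 5.90 for T cells against microglia, sizes that are set by edgeR's prior count and bound nothing.

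Cdkn2b, the p15 gene, lies 11646 bases from Cdkn2a on chromosome 4 and is known as a target of transforming growth factor beta. It had 2 and 8 counts in ILC2 (0.162 and 0.634 CPM), 56, 13 and 57 counts in T cells (6.08, 0.896 and 5.68 CPM), and 0, 93 and 0 counts in microglia (0, 9.19 and 0 CPM). The ILC2 libraries lay under the T cell libraries, and in microglia 1 library, microglia 2, held all the counts. Fitted log2 fold changes were −3.37 (SE 3.00, adjusted p = 0.890) for ILC2 against T cells, −2.91 (SE 2.93, adjusted p = 0.640) for ILC2 against microglia and 0.46 (SE 2.32, adjusted p = 0.942) for T cells against microglia. The microglia comparisons turn with single libraries: ILC2 against microglia was 5.19 without microglia 2, again with no microglia count left, and T cells against microglia was −0.13 without microglia 1 and −0.13 without microglia 3. No microglia library held both Cdkn2a and Cdkn2b.

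The counts of calls stand beside the share of all genes tested that was called. Of the 8 genes, 0 were called for ILC2 against T cells, where 0.923% of all genes tested were called, and 0 of the 8 had an unadjusted p under 0.05 (9.39% of all genes). For ILC2 against microglia 0 were called (9.75% of all genes) and 1, Trp53, had an unadjusted p under 0.05 (24% of all genes). DESeq2, limma-voom and the newer edgeR method also called 0 of the 8 in each of these comparisons. For T cells against microglia 1 of 8 was called (13% of all genes) and 3 had an unadjusted p under 0.05 (28.2% of all genes), namely Trp53, Cdkn1a and Cdkn1b. Without microglia 1 and 3 the 1 gene called in T cells against microglia was Cdkn2d and not Trp53.

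Overlap was read on the scaled libraries. Libraries of T cells and microglia did not overlap for 5 of the 8 genes (37.2% of all genes): 4 higher in T cells (Trp53, Cdkn1b, Cdkn2c and Cdkn2d; 18.4% of all genes) and 1 lower in T cells (Cdkn1a; 18.7% of all genes). ILC2 and microglia did not overlap for 3 of the 8 (43% of all genes): Trp53 and Cdkn2d, both higher in ILC2 (21.9% of all genes), and Cdkn1a, lower in ILC2 (21.1% of all genes). On plain library sizes Cdkn1a overlapped in both of these comparisons with microglia. ILC2 and T cells did not overlap for 2 of the 8 (25.2% of all genes): Cdkn2a, higher in ILC2 (13.4% of all genes), and Cdkn2b, lower in ILC2 (11.8% of all genes). For Cdkn2a the margin was narrow, 1.51 CPM in ILC2 2 against 1.41 CPM in T cells 1. These are 19 of 12585870 and 13 of 8376609 counts, an order that turns round on plain library sizes. The median log2 fold change of the 8 genes was −0.31, 0.70 and 0.69 for ILC2 against T cells, ILC2 against microglia and T cells against microglia, beside medians within 0.01 of 0 over all genes. With standard errors from 0.28 for Trp53 to 3.00 for Cdkn2b, the comparisons of the low INK4 genes could not show differences of several fold, while those of Trp53 were the most precise.

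**Figure D2:**
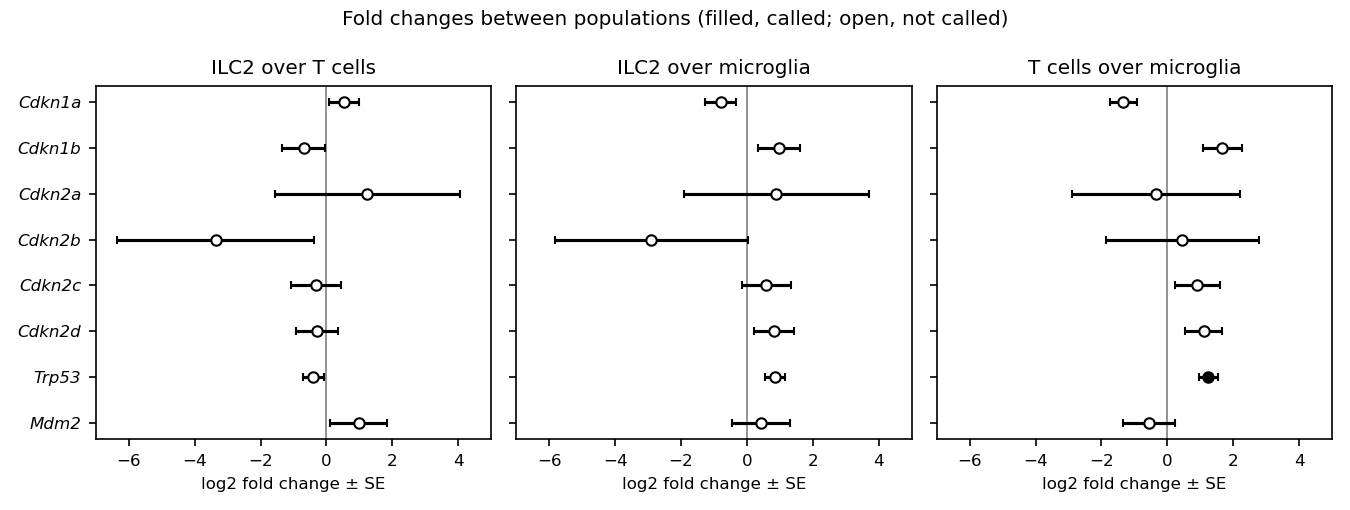
Log2 fold change of each gene with its standard error for ILC2 against T cells, ILC2 against microglia and T cells against microglia, with filled symbols for a call. The filled symbol is Trp53 in T cells against microglia (1.24), and the widest error bars belong to Cdkn2a and Cdkn2b.

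Levels per kilobase of annotated exon allow the genes to be ranked within a population. In ILC2 the order was Cdkn2d at 92.9 ± 9.22, Trp53 at 43.3 ± 6.11, Cdkn1a at 17.8 ± 0.359, Mdm2 at 12.8 ± 3.33, Cdkn1b at 9.20 ± 1.87, Cdkn2c at 7.37 ± 2.14, Cdkn2a at 1.33 ± 0.0656 and Cdkn2b at 0.286 ± 0.241 CPM per kilobase (SD, n = 2). In T cells it was Cdkn2d at 112.8 ± 30.3, Trp53 at 56.9 ± 8.18, Cdkn1b at 14.9 ± 6.75, Cdkn1a at 12.2 ± 5.77, Cdkn2c at 9.27 ± 3.48, Mdm2 at 6.52 ± 5.12, Cdkn2b at 3.03 ± 2.07 and Cdkn2a at 0.558 ± 0.607 CPM per kilobase (SD, n = 3). In microglia it was Cdkn2d at 52.4 ± 35.4, Cdkn1a at 30.9 ± 8.13, Trp53 at 24.0 ± 4.85, Mdm2 at 9.61 ± 6.41, Cdkn2c at 4.92 ± 2.04, Cdkn1b at 4.67 ± 3.11, Cdkn2b at 2.204 ± 3.82 and Cdkn2a at 0.712 ± 1.23 CPM per kilobase (SD, n = 3). Neighbours from the third to the eighth place in T cells differed by less than their summed SDs, as did all neighbours in microglia except Trp53 and Mdm2. In ILC2 the neighbours Mdm2 and Cdkn1b, and Cdkn1b and Cdkn2c, differed by less than theirs.

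Within the 6 inhibitors, Cdkn2d made up most of the summed level per kilobase in 7 of the 8 libraries. Its share was 74.9% and 69.0% in ILC2, 71.0%, 76.4% and 75.7% in T cells, and 68.2%, 20.7% and 60.4% in microglia. Cdkn1a had the next largest share in ILC2, 13.6% and 14.04%, and in microglia 1 and 3, 24.3% and 29.9%, and in microglia 2 it held the largest, at 49.9%. In T cells the Cdkn1a share was 9.17%, 7.00% and 7.15%, close to the Cdkn1b share of 10.6%, 10.5% and 7.29%. Microglia 2, the library that stands apart here, was also the one with the lowest summed neutrophil markers among microglia (8077 CPM, against 49974 and 62457 CPM), and their part in the shares was not tested.

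**Figure D3:**
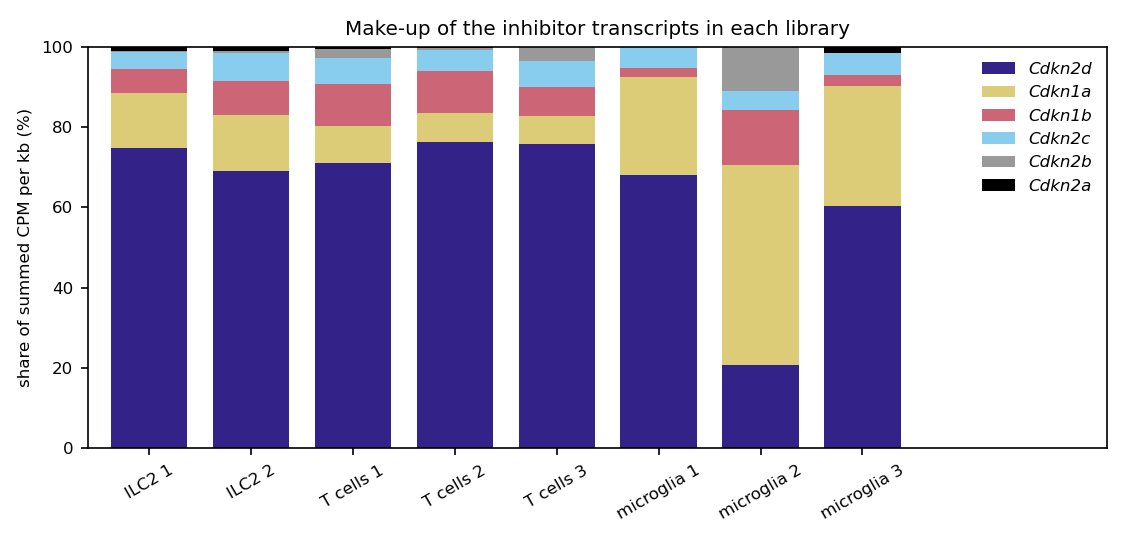
Share of each of the 6 inhibitors in their summed level per kilobase of exon, in percent, 1 bar a library in the order ILC2, T cells, microglia. Cdkn2d takes 60.4% to 76.4% of the bar in every library except microglia 2, where it takes 20.7% and Cdkn1a takes 49.9%.

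Ratios of counts within a library do not depend on how libraries are scaled against each other. They carry the lengths of both genes, so they are compared across libraries only. Cdkn1a over Trp53 was 0.408 and 0.324 in ILC2, 0.267, 0.139 and 0.151 in T cells, and 0.693, 1.19 and 1.69 in microglia. The populations did not overlap on this ratio, with microglia highest and T cells lowest. Cdkn1a over Cdkn1b was 1.79 and 1.30 in ILC2, 0.674, 0.522 and 0.766 in T cells, and 8.44, 2.86 and 8.30 in microglia, again with no overlap and in the same order. Mdm2 over Trp53 was 0.490 and 0.277 in ILC2, 0.0177, 0.223 and 0.207 in T cells, and 0.720, 0.396 and 0.304 in microglia, where ILC2 overlapped microglia but T cells were below both. On a log2 scale T cells minus microglia was −2.65 for Cdkn1a over Trp53, −3.18 for Cdkn1a over Cdkn1b and −2.24 for Mdm2 over Trp53. The last value rests largely on T cells 1: without that library it was −1.04, and without T cells 2 it was −2.87. Each of these 3 differences had a two-sided exact permutation p of 0.1, the smallest that 3 libraries against 3 allow. Adjusted over the 9 ratio tests, p was 0.225 to 0.7, and no test of this size could have passed.

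**Figure D4:**
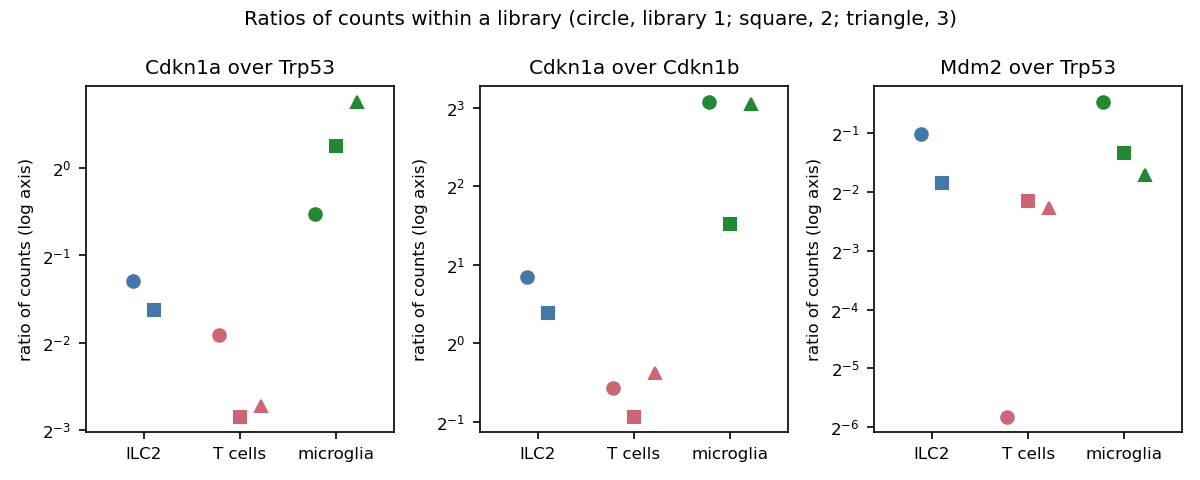
Ratios of read counts of 2 genes within a library, on a log axis, for Cdkn1a over Trp53, Cdkn1a over Cdkn1b and Mdm2 over Trp53 (points are libraries). For Cdkn1a over Trp53 the microglia points, at 0.693 to 1.69, lie above those of ILC2, at 0.324 and 0.408, and of T cells, at 0.139 to 0.267.

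Genes of the pathways around these 8 were read from 8 lists, which held 132 tested genes. For ILC2 against T cells 0 of the 132 were called in edgeR, 10 had an unadjusted p under 0.05, and DESeq2, limma-voom and the newer quasi-likelihood method called 3, 1 and 1. Of all genes 0.431% were called higher and 0.492% lower in that comparison. For ILC2 against microglia 8 were higher and 1 lower, 6.82% of the lists beside 9.75% of all genes (4.99% higher, 4.76% lower). For T cells against microglia 11 were higher and 3 lower, 10.6% of the lists beside 13% of all genes (5.91% higher, 7.13% lower). The other tools called more: for ILC2 against microglia DESeq2, limma-voom and the newer edgeR method called 20, 17 and 19 of the 132, and for T cells against microglia 25, 21 and 24. Without ILC2 2 the ILC2 against microglia count was 5, and without T cells 2 the T cells against microglia count was 9. Of these 23 calls 11 held whichever library was left out, and those lost in at least 1 such fit are named as such. Without microglia 1 and 3, 15 of the 23 were lost, and those kept were both calls of Ccnd2, Id2 and Mcm6, the call of Ccnd3 and the T cell call of Ets1.

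Transcriptional targets of p53 were mostly below the threshold: of 31 tested, 1 was lower in ILC2 than in microglia and 1 was higher in T cells than in microglia. The median log2 fold change of the list was −0.32 for ILC2 against T cells, −0.22 for ILC2 against microglia and 0.19 for T cells against microglia. Gadd45a, a stress gene acting in growth arrest and repair, averaged 5.82 ± 2.17 CPM in ILC2 (n = 2) and 60.5 ± 12.1 CPM in microglia (n = 3), with SD. Trp53inp1, which promotes the pro-apoptotic activity of p53, averaged 165.6 ± 64.6 CPM in T cells and 38.6 ± 16.6 CPM in microglia (SD, n = 3 each). The Gadd45a call was lost in 5 of the 8 left-out fits, whichever ILC2 or microglia library was left out. The Trp53inp1 call was lost in 3 of the 8, without microglia 1, microglia 3 or T cells 2.

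Of 17 regulators of p53, 2 were higher in ILC2 than in microglia and the same 2 were higher in T cells than in microglia. These were Rpl5 and Rpl11, ribosomal proteins that also bind and restrain Mdm2. Rpl5 averaged 316.0 ± 88.8 CPM in ILC2 (n = 2), 289.5 ± 58.2 CPM in T cells and 78.1 ± 5.46 CPM in microglia (SD, n = 3 each of the last 2). Rpl11 averaged 471.0 ± 196.5 CPM in ILC2, 445.1 ± 121.3 CPM in T cells and 129.0 ± 8.04 CPM in microglia. The median of the whole list was −0.77 for ILC2 against microglia and −0.00051 for T cells against microglia, and so did not share the direction of these 2 genes. The Rpl11 call in ILC2 was lost without ILC2 2.

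Next come the kinases and cyclins that the inhibitors act on. Of 16 genes, 1 was higher in ILC2 than in microglia, and 4 were higher and 1 lower in T cells than in microglia. Ccnd2, a D-type cyclin, averaged 663.8 ± 191.2 CPM in ILC2, 1009 ± 218.5 CPM in T cells and 25.5 ± 21.2 CPM in microglia, and both calls held in every setting tried. Without microglia 1 its log2 fold change was 5.56 for ILC2 and 6.16 for T cells against microglia, beside 4.70 and 5.30 with all libraries. Cdk4, the main partner of D-type cyclins and target of the INK4 proteins, averaged 293.5 ± 29.4 CPM in T cells and 95.0 ± 23.6 CPM in microglia, a call that held whichever library was left out. Ccnd3, another D-type cyclin, averaged 471.0 ± 34.0 CPM in T cells and 172.3 ± 90.1 CPM in microglia, and the phosphatase gene Cdc25b averaged 70.6 ± 34.1 CPM in T cells and 1.28 ± 2.23 CPM in microglia. Ccnd1 was the one lower in T cells, at 5.83 ± 6.15 CPM, against 108.8 ± 17.5 CPM in microglia. The calls of Ccnd3, Cdc25b and Ccnd1 were each lost in 5 or 6 of the 8 left-out fits. The Ccnd1 log2 fold change was −4.22, and −5.29 without T cells 3, and Cdc25b had no microglia count outside microglia 2.

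Retinoblastoma and E2F genes, which act below the kinases, gave 1 call among 13: Rbl2, a pocket protein of resting cells, averaged 188.0 ± 127.3 CPM in ILC2 and 29.9 ± 2.61 CPM in microglia, a call lost without ILC2 1 or microglia 3. Its log2 fold change was 2.65, and 1.76 without ILC2 1. Of 14 proliferation genes, Mcm6 was higher in ILC2 and in T cells than in microglia and Mcm2 was higher in T cells than in microglia. Both encode parts of the replicative helicase. Mcm6 averaged 168.9 CPM in ILC2, 106.7 CPM in T cells and 23.1 CPM in microglia, and Mcm2 averaged 39.4, 87.7 and 9.22 CPM in that order of populations. The Mcm6 calls were lost in several left-out fits, and without microglia 3 its log2 fold changes were 3.99 for ILC2 and 3.33 for T cells against microglia, beside 2.87 and 2.21 with all libraries. The Mcm2 call held whichever library was left out. The median of the list was 0.93 for ILC2 against microglia and 0.94 for T cells against microglia.

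Of 14 genes for turnover and binding of the inhibitors, Skp1a was higher in ILC2, at 705.5 CPM, against 274.5 CPM in microglia. Cul1 was lower in T cells, at 37.9 ± 6.89 CPM, against 113.5 ± 29.8 CPM in microglia. Both encode parts of the ubiquitin ligase that degrades p27, and both calls were lost in some left-out fits. Of 25 Polycomb and other regulators of the inhibitor genes, Ets1 and Id2 were higher in ILC2 and in T cells than in microglia, and Id1 was lower in T cells than in microglia. Ets1, a factor that can activate p16, averaged 224.3 CPM in ILC2, 401.2 CPM in T cells and 62.5 CPM in microglia. Id2, an antagonist of basic helix-loop-helix factors that innate lymphoid cells require, averaged 4117, 1906 and 439.1 CPM in the same order. Id1, a relative of Id2, averaged 23.5 CPM in microglia and had no count in T cells, which makes it at least 84.8-fold lower in T cells against a floor of 3 counts per library. Microglia 1 carries much of that bound, which was at least 45.7-fold without it. No Polycomb gene was called. The Ets1 call in ILC2 was lost in 6 of the 8 left-out fits, and the other 4 calls of this list held in all 8. The remaining inhibitor genes, Cdkn1c and Cdkn3, gave no call, with Cdkn3 at 17.5 ± 6.85 CPM in ILC2, 5.18 ± 4.51 CPM in T cells and 9.07 ± 9.13 CPM in microglia, and Cdkn1c at 1.55 ± 1.51 CPM in ILC2, 1.24 ± 1.63 CPM in T cells and 4.40 ± 4.48 CPM in microglia.

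For 6 of the 8 genes, the 3 genes most like each were ranked by Pearson's r of log2(CPM + 1) over the 8 libraries, which share their populations and scaling. For Trp53 they were Psmb8 (0.996), Rbm3 (0.991) and Nop10 (0.989), and for Mdm2 they were Rdh11 (0.975), Ccnb1 (0.975) and Klhl28 (0.973). For Cdkn1a they were Dennd6a (0.991), Gsdmd (0.979) and Pwwp2a (0.973), and for Cdkn1b they were Rhoh (0.976), Ifitm10 (0.970) and Car5b (0.962). For Cdkn2d they were Igf2r (0.979), Mcmbp (0.959) and Axin1 (0.957), and for Cdkn2c they were Bax (0.969), Cdk2ap1 (0.958) and F8a (0.946). With 13000 candidates and 8 libraries, values of this size are a description only.

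The 8 genes lie on 6 chromosomes of the mouse (GENCODE M21, GRCm38): Cdkn2a, Cdkn2b and Cdkn2c at chr4:89274471-89294653, chr4:89306299-89311039 and chr4:109660876-109667189, all on the minus strand. Cdkn1a is at chr17:29090976-29100727 and Cdkn1b at chr6:134920401-134925513, both on the plus strand. Cdkn2d is at chr9:21288410-21291407 on the minus strand, Trp53 at chr11:69580359-69591873 on the plus strand and Mdm2 at chr10:117688875-117710758 on the minus strand. Of the 11 promoter windows of 300 bases, 9 had a higher G and C content than the median window of all genes (52.7%), within a range of 44% to 77%. The annotation has 1 gene overlapping a member, an unnamed transcript opposite Cdkn1a over 1046 bases, which has no row in the table. Whether counting used strand is not given in the sources used here, so reads of the 2 cannot be told apart.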

How the data were processed

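Whole-number read counts per gene, not normalized, were deposited by the authors, from single-end sequencing with 75 bp reads. The submitters' processing notes name STAR 2.5.3a, DESeq2 1.1, Cufflinks 2.0, bcl2fastq 2.20.0.422 and FastQC 1.0.0, and build mm10. The program that counted reads and its strand setting are not given in the sources used here. The row of reads that fell in no gene (53.8% to 61.0% of the total) and that of ambiguous reads (0.338% to 1.23%) were left out, as were 27 rows with dates for symbols (0.0425% to 0.102%). Of 9 value columns, 1 whose heading matched no sample label was not used.

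From there, edgeR 4.0.16 (R 4.3.3) fitted all 8 libraries with 3 populations as groups, after TMM scaling (factors 0.822 to 1.18), on genes whose counts averaged 10 or more. Quasi-likelihood p-values were two-sided and Benjamini-Hochberg adjusted over 13000 genes, and the SE is the absolute log2 fold change over the root of the F statistic. CPM uses the scaled library, and levels per kilobase use the union of exons. The depth sets a floor of 3 counts at 0.207 to 0.326 CPM. Floors cover counting error only, while SDs and SEs include variation between libraries. Nothing in the labels says that libraries came from separate animals, so p-values reflect only how these libraries vary, and that variation may be technical. The alternatives were other scalings, filters and tools (DESeq2 1.42.0, limma 3.58.1), leaving out each library, and leaving out the microglia libraries richest in neutrophil markers, which was chosen after seeing the data. The genes, lists and tests were chosen with earlier results of these data known. List genes were named where called, or, in a list with no call, the 2 with the highest mean level. The genes most like Cdkn2a and Cdkn2b are not reported here. The script was tested on simulated data.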

Additional observations from a re-analysis of the deposited data

How the results depend on the processing

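Over 19 alternatives, 423 of 448 values for the 8 genes kept their direction and their side of the threshold, 5 lost a call, 9 gained one and 11 changed sign. All 5 losses are Trp53 in T cells against microglia. The number of the 8 genes called for T cells against microglia (1) was 2 with library size alone, 2 in DESeq2, 2 in limma-voom and 3 with the newer quasi-likelihood method, and ran from 0 to 1 with 1 library left out (0 without microglia 2, microglia 3 or T cells 2). For ILC2 against microglia (0) it was 1 with library size alone (Trp53) and 1 without microglia 1 and 3 (Cdkn2d). Of all genes, calls for ILC2 against T cells (120) became 235 with no filter, 513 in DESeq2, 292 in limma-voom, 321 with the newer method and 188 with only these populations in the fit, and 62 to 118 with 1 library left out. Calls for ILC2 against microglia (1268) became 2327 in DESeq2, 2085 in limma-voom, 2250 with the newer method and 557 without microglia 1 and 3, and 708 to 1267 with 1 library left out. Calls for T cells against microglia (1695) became 2701 in DESeq2, 2724 with the newer method and 702 without microglia 1 and 3, and 1180 to 1766 with 1 library left out. Signs changed for Cdkn2c in ILC2 against T cells (0.021 without T cells 1; −0.66 to 0.021 over the libraries left out), for Cdkn2b in ILC2 against microglia (0.34 in limma-voom, 5.19 without microglia 2; −4.15 to 5.19), for Cdkn2a in T cells against microglia (0.93 in limma-voom, 5.90 without microglia 3, 0.29 without T cells 3, 5.93 without microglia 1 and 3; −1.54 to 5.90), for Cdkn2b there (−0.13 without microglia 1, −0.13 without microglia 3, −1.12 without microglia 1 and 3; −0.13 to 8.56) and for Mdm2 there (0.13 without microglia 1; −1.25 to 0.13). The log2 difference in the ratio of Mdm2 to Trp53 between ILC2 and microglia (−0.27) was 0.15 without ILC2 2 and 0.085 without microglia 1 (−0.68 to 0.15 over the libraries left out, an alternative chosen after seeing the data). The cause was not tested. Cdkn1b in T cells against microglia passed with library size alone (2.03) and with the newer method (1.66). It stayed short of the threshold in the other 17 of 19 alternatives, and over all 19 its log2 fold change ran from 0.87 to 2.34. Plain library sizes kept the order of the population means for 8 of 8 genes. Single libraries did change places: for Cdkn1a microglia 1 fell under ILC2 1 and T cells 1, and for Cdkn2a ILC2 2 fell under T cells 1. The sample titles repeat the same replicate numbers in each population, without saying that a number marks one mouse. No paired analysis was possible because the column headings carry no replicate numbers. The fit therefore treated the libraries as independent, and any source shared across populations was not modelled. Cdkn2a and Cdkn2b had no value under the stricter filter, and their low counts limit what the depth can show.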

Other observations

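The nearest annotated genes with a row of counts on either side of the 8 gave 16 positions, of which 13 could be tested. Cdkn2a and Cdkn2b are among these as each other's neighbour. By edgeR 0 were called in any comparison. Of all genes 0.923% were called for ILC2 against T cells, 9.75% for ILC2 against microglia and 13% for T cells against microglia. Trp53cor1, a long noncoding RNA 11797 bases from Cdkn1a that is known in mouse as a p53 target, had 1.05 and 2.54 CPM in ILC2, 3.04, 0 and 0 CPM in T cells, and 10.1, 28.9 and 26.7 CPM in microglia. Its microglia libraries lay above all others, as those of Cdkn1a did on the scaled libraries only. For Trp53cor1 the adjusted p was 0.172 for T cells against microglia and 0.375 for ILC2 against microglia. Kri1, 441 bases from Cdkn2d, had 10.2, 10.5 and 13.7 CPM in microglia 1, 2 and 3, a narrow range beside the 102.8, 19.5 and 125.3 CPM of Cdkn2d in the same libraries. Wrap53, 104 bases from Trp53, had 6.78 CPM in microglia 3 and no count in microglia 1 and 2. Trp53cor1, Kri1 and Wrap53 were singled out after their values were seen.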
